A study of Mus musculus with 2 samples.

Results

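Cd163-positive macrophages of the mouse small intestine were defined as macrophages with at least 2 unique molecular identifiers (UMIs, the tags that mark single captured transcripts) of Cd163 and fewer than 3 UMIs in all of Cbr2, F13a1, Folr2 and Lyve1, 4 genes that mark a perivascular kind of macrophage. Macrophages were taken as cells with at least 200 detected genes, at most 10% mitochondrial UMIs and at least 0.5% of their UMIs from C1qa, C1qb and C1qc. Of 5828 cells in 2 libraries, 4847 met the macrophage gate and 301 were Cd163-positive macrophages, 114 of them wild type and 187 Ccr2 knockout. Cd163, the 4 perivascular genes and the 3 C1q genes chose the cells, so their levels are a description and were left out of every ranking. Within each library the cells were compared with gate cells that had 0 Cd163 UMIs, matched on total UMIs.

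CD163 is a scavenger receptor that takes up haemoglobin bound to haptoglobin, and it is mainly carried by tissue-resident macrophages. CCL2, CCL7 and CCL12 are ligands of CCR2, the receptor through which monocytes leave the bone marrow and are drawn into tissue. VCAM1 is an adhesion molecule that binds integrins on leukocytes. In the small intestine some macrophages are steadily replaced from monocytes, while others persist for long times near vessels, nerves and the muscle layer.

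The wild-type library came from male C57BL/6J mice of the breeder Janvier, and the knockout library from CCR2-/- mice of JAX strain 004999 that were bred in-house, with no sex or age given in the labels. Genotype, breeder and housing are therefore the same split and cannot be told apart. The intestines of 3 to 4 mice were pooled for each of the 2 libraries, stripped of epithelium, digested with Liberase TL and sorted as live CD45-positive cells with CD11b, MHC class II and CD64 that lacked CD3, TCRb, B220, SiglecF, Ly6C and Ly6G, so cells with surface Ly6C were gated away. Each genotype is 1 library of pooled animals. No value has a replicate, no test between groups was possible, and every interval is a 95% interval of counting error only. The barcodes of the wild-type library carry 2 suffixes, which were read as 2 lanes. What separates these lanes is not known here, and their values are not taken as spread between animals. The knockout library shared 6 barcode sequences with wild-type lane 1 and 0 with lane 2. The lanes shared 5, of which 1 belonged to a Cd163-positive macrophage. The libraries differed in depth. A wild-type member had a median of 5809 UMIs, a knockout member 2966.

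Cd163-positive macrophages made up 4.32% of wild-type gate cells (exact Clopper-Pearson interval 3.58% to 5.17%) and 8.47% of knockout gate cells (7.34% to 9.71%). Lane 1 of the wild type had 4.61% and lane 2 had 3.67%. Because a minimum of 2 UMIs asks for a higher share of Cd163 in a shallower cell, the share was also taken at like depth. Among gate cells with 2000 to 4000 UMIs it was 5.51% in wild type (31 of 563 cells) and 9.64% in the knockout (90 of 934 cells). Each gate cell was also thinned at random to 1000 UMIs, which left out 0 wild-type and 152 knockout cells. Both limits of the rule, on Cd163 and on the perivascular genes, were then applied to the thinned counts. They were met by 0.758% of wild-type and 3.26% of knockout cells, and with a minimum of 1 Cd163 UMI by 4.13% and 12.3%. Cells over the perivascular limit before thinning could fall under it afterwards, so these are not shares of the same members. The order of the libraries was the same in each of these readings, and it was not tested.

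The median cell of the set had 2 Cd163 UMIs in both libraries. The highest wild-type cell had 10 and the highest knockout cell 7. The summed level was 431 counts per 1000000 UMIs (CPM) for the wild-type members and 896 CPM for the knockout members. A minimum of 2 UMIs is a higher CPM in a shallower cell, so these levels are not at like depth. Members with 2000 to 4000 UMIs had 899 CPM (714 to 1117) in wild type and 982 CPM (867 to 1109) in the knockout. These intervals overlap. Just inside the minimum lay 60 wild-type and 98 knockout cells with 2 Cd163 UMIs, and just outside it 137 and 242 cells with 1. At the other border of the rule, 17 wild-type and 13 knockout cells had a perivascular sum of 2, and 5 and 12 Cd163-positive cells with a sum of 3 were left out. No UMI of the 4 perivascular genes was found in 77 of the 114 wild-type and 128 of the 187 knockout cells. Many members thus sat close to a border, and the set was cut by Cd163 level. No clustering was run, so whether these cells form a separate group was not tested.

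The macrophage markers that the gate did not use were detected in the set. The 5 genes Adgre1, Fcgr1, Csf1r, Cd68 and Mertk summed to 1944 CPM in wild-type members against 1963 CPM in their matched cells, and to 2387 against 2491 CPM in the knockout. At least 1 UMI of them was found in every wild-type member and in 97.9% of knockout members. Csf1r, the receptor for the main macrophage growth factor, was at 899 CPM against 1010 in wild type and 1464 against 1706 in the knockout. Of the 7 core macrophage genes above the CPM minimum, none was called in both libraries, where 3.83% of all tested genes were higher and 3.43% lower. Cd3d and Cd3e of T cells, Cd79a and Ms4a1 of B cells in wild type, and S100a8 and S100a9 of neutrophils had 0 UMIs in the set. Other genes of these lists were detected. B or plasma cell genes, mostly Jchain and Cd79b, summed to 95.9 against 129 CPM in wild type and 241 against 237 CPM in the knockout. Neutrophil genes, mostly Csf3r, summed to 39.4 against 38.6 CPM and 41.0 against 49.1 CPM. Ccr2, the deleted gene, had 140 UMIs in wild-type members, or 184 CPM (155 to 217 CPM), below the 310 CPM of all wild-type gate cells without Cd163. In knockout members it had 0 of 584772 UMIs, which allows up to 6.31 CPM, against 6.14 CPM in knockout gate cells without Cd163.

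For each member up to 3 gate cells with 0 Cd163 UMIs and a total within 10% were taken from the same lane. All members found a match, with 342 matched wild-type and 561 matched knockout cells and median totals of 5805.5 and 2971 UMIs. Ratios are log2 of summed CPM with 1 CPM added to both sides. A gene was called when the ratio reached 1.5-fold, among 2218 genes with a mean of at least 50 CPM in both libraries. The median ratio of these genes was 0.02 in wild type and 0.06 in the knockout.

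In wild type 139 genes (6.27%) were higher and 121 (5.46%) lower in Cd163-positive macrophages by at least 1.5-fold. In the knockout 187 (8.43%) were higher and 184 (8.3%) lower. In both libraries 85 genes (3.83%) were higher, 76 (3.43%) were lower, and 1 gene, Socs3 (0.0451%), was called in opposite directions. Counts of calls in the gene lists are to be read beside these shares. Of the 139 genes higher in wild type 131 had the same sign in the knockout, and of the 121 lower genes 109 did. The share of all tested genes with each sign was not taken beside these counts. Calls in the knockout were met by 61.2% of the 139 and 62.8% of the 121, against 8.43% and 8.3% of all tested genes. Of the knockout calls 45.5% of the higher and 41.3% of the lower genes were called in wild type. Differences beyond Cd163 thus recurred in part in 2 libraries with separate cells. The higher genes included the Fc receptor-like gene Fcrls, the lipid scavenger receptor Cd36, the chemokines Pf4, Ccl2 and Ccl7, and the growth factor Igf1. Of the 85 higher genes 23 were under 50 CPM in the matched cells of a library, and of the 76 lower genes 27 were under it in members, so these passed the minimum through their high side.

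**Figure D1:**
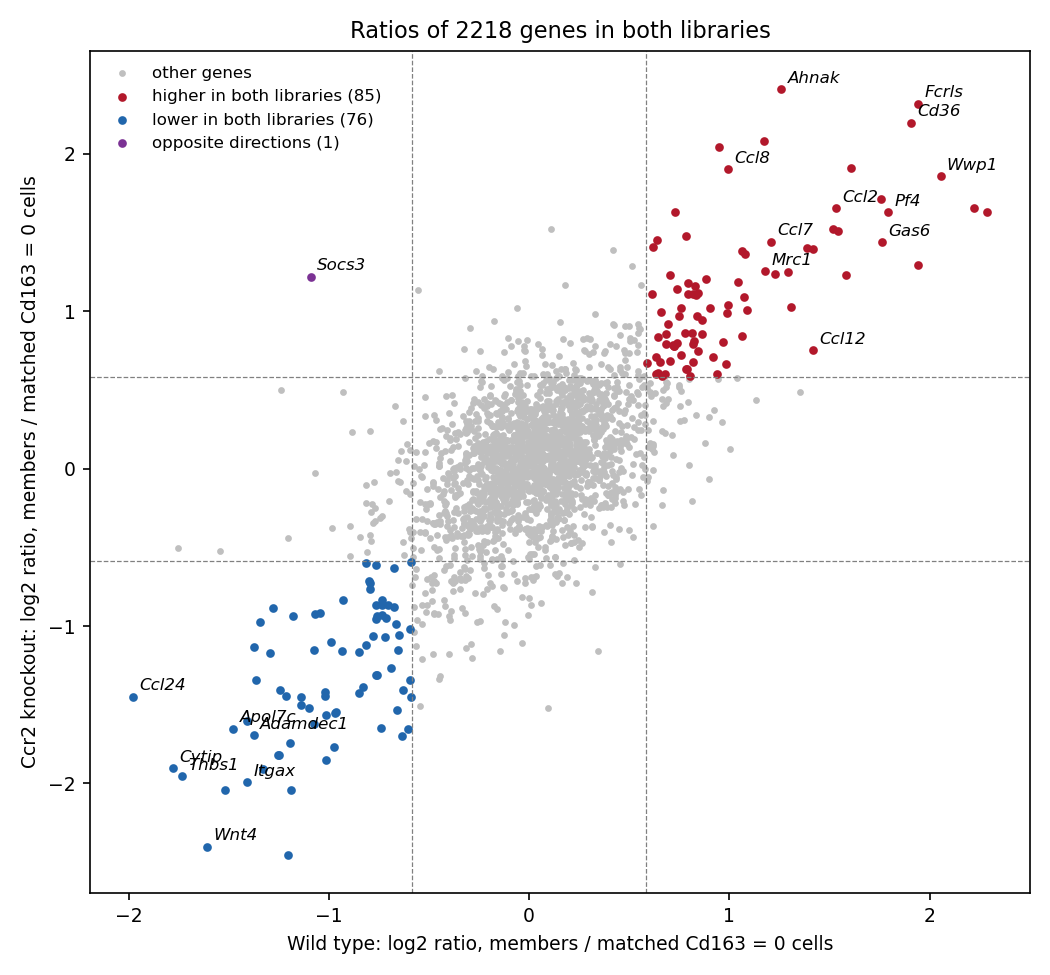
Each point is 1 of 2218 genes, with the log2 ratio of summed CPM in Cd163-positive macrophages over depth-matched Cd163 = 0 cells in wild type on the horizontal and in the Ccr2 knockout on the vertical axis. Dashed lines mark 1.5-fold. The 85 genes higher in both libraries are red, the 76 lower in both are blue, and Socs3, at -1.09 in wild type and 1.22 in the knockout, stands alone in purple.

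The ligands of CCR2 were higher in Cd163-positive macrophages in both libraries. Ccl2 and Ccl7 had been named together with these cells from earlier results of these data, so their values describe them. Ccl2 was at 346 CPM in wild-type members (exact Poisson interval 305 to 390) and 119 CPM (105 to 134) in matched cells, a 2.91-fold ratio (2.45 to 3.46). In the knockout it was at 1443 CPM (1348 to 1544) against 458 CPM (426 to 490), 3.15-fold (2.86 to 3.48). Lane 1 had 363 against 114 CPM and lane 2 had 290 against 133 CPM, so Ccl2 was higher in members in every lane. When cells were matched also on the share of immediate-early transcripts, genes switched on within minutes of a stimulus or of tissue digestion, the log2 ratio of Ccl2 was 1.05 in wild type and 1.47 in the knockout, against 1.53 and 1.66.

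Ccl7 was at 377 CPM (335 to 423) against 163 CPM (146 to 180) in wild type, a 2.32-fold ratio (1.98 to 2.71). Knockout members had 2336 CPM (2214 to 2463) against 858 CPM (815 to 903), 2.72-fold (2.53 to 2.93). The wild-type value rested on lane 1, where the level was 433 against 158 CPM and the log2 ratio 1.45. In lane 2 it was 204 against 176 CPM, a log2 ratio of 0.22 that would not be called. Matching on immediate-early share left log2 ratios of 0.90 and 1.26.

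Ccl12 and Ccl8, the neighbours of Ccl2 and Ccl7, made up the rest of the list. Ccl12, a further CCR2 ligand in mice, was at 640 CPM against 239 in wild type (log2 ratio 1.42) and 886 against 525 in the knockout (0.75). Ccl8, a chemokine that in mice acts mainly through CCR8, was at 615 against 308 CPM in wild type (0.99) and 800 against 213 CPM in the knockout (1.91). All 4 genes of the list passed the CPM minimum and all 4 were called higher in both libraries, with list medians of 1.31 and 1.55. Because Ccl2 and Ccl7 had been named with the cells from these data, the medians are a description. The wild-type Ccl8 call rested on 1 cell, which held 167 of 468 UMIs (35.7%). Without that cell Ccl8 was at 398 CPM in members, a log2 ratio of 0.37 that would not be called. After thinning to 1000 UMIs per cell, Ccl8 was in 18.4% of wild-type members and 18.1% of matched cells, and in 23.5% and 11.3% of knockout cells. For these 2 genes too the wild-type value rested on lane 1, with log2 ratios of 1.89 for Ccl12 and 1.11 for Ccl8, against 0.14 and 0.16 in lane 2. Lane 2 held only 30 members.

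The 4 chemokine genes lie side by side on the plus strand of chromosome 11, within 81.2 kb from 82035571 to 82116799 (GRCm38, GENCODE M21), with Ccl2 at 82035571 to 82037453 and Ccl7 at 82045712 to 82047525. Ccl11, an eosinophil chemokine that lies between Ccl7 and Ccl12, was below the minimum, with 2 UMIs in wild-type and 10 in knockout members. A second group of chemokine genes on chromosome 11, from 83572919 to 83664683, holds Ccl9, Ccl6, Ccl3 and Ccl4. In it Ccl6 and Ccl9 were called higher in both libraries, whereas Ccl3 (log2 ratios -0.12 and 0.46) and Ccl4 (0.07 and 0.33), attractants of several leukocyte types, were not.

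Upstream sequences are shown for 2 neighbouring chemokine genes that were both higher in the set, and for Cd163, which defines it, as the 250 bases before the annotated start, plus strand, from RefSeq on GRCm38.p6. They cover chr11:82114935-82115184 for Ccl8, chr11:82101595-82101844 for Ccl12 and chr6:124304401-124304650 for Cd163. Capitals mark matches on either strand. The motifs were TATAAA, which is the core promoter element upstream of many starts, and GAGGAA, which is the PU box that the myeloid factor PU.1 binds.
Ccl8: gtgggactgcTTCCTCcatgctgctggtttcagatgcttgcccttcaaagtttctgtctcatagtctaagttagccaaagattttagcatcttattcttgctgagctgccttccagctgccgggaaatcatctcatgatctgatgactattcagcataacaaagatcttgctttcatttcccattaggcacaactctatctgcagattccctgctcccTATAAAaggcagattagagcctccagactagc
Ccl12: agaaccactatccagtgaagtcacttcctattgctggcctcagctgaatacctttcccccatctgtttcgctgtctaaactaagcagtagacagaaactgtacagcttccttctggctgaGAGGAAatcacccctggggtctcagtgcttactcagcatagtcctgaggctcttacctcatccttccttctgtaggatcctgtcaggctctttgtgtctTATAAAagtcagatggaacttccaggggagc
Cd163: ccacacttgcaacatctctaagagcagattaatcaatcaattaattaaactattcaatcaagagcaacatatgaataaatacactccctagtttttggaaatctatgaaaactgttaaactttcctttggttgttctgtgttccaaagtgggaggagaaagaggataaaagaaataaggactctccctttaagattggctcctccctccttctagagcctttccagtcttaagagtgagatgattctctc
Both chemokine windows hold TATAAA, beginning 32 bases before the start of Ccl8 and 31 before that of Ccl12, and a PU box, 240 and 130 bases before it. TATAAA is found in 12.4% and GAGGAA in 23.3% of 32851 mouse promoter windows of this length. Of the 20 leading higher genes, which do not include Ccl8 and Ccl12, 14 had a window in the table, of which 2 hold the first motif and 6 the PU box. TGANTCA (the AP-1 motif, in 6.75% of windows), TGCTGAC (a Maf half-site, 3.81%) and the NF-kappaB motif (7.25%) had no match in these windows, and the Cd163 window had no match to any of the 5. A match is a description of letters and not evidence of binding.

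Vcam1 (chromosome 3, 116109949 to 116129688, minus strand) was named with the cells as well, and its support differed between the libraries. Knockout members had 356 CPM (309 to 407) against 122 CPM (106 to 140), a 2.91-fold ratio (2.40 to 3.54), from 208 member UMIs. In wild type it was near the limit of detection, with 28 UMIs in members and 28 in the 3 times larger matched group, or 36.8 CPM (24.4 to 53.2) against 12.3 CPM (8.15 to 17.7). The mean was below 50 CPM, so Vcam1 did not enter the tested genes. The wild-type ratio, 1.51 on the log2 scale, was -0.00039 when only members with 0 UMIs of the 4 perivascular genes were kept, whereas the knockout ratio was then 1.32. Among cells with 2000 to 4000 UMIs the wild-type ratio was 2.20, from 8 member UMIs. Wild-type members with a perivascular sum of 1 or 2 had 77.9 CPM of Vcam1 and those with a sum of 0 had 15.9 CPM. In the knockout these levels were 420 and 318 CPM.

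Among adhesion molecules only 8 of 12 passed the minimum, and the alpha integrin Itgax (CD11c) was called lower in both libraries, at 60.4 against 162 CPM in wild type and 61.6 against 248 CPM in the knockout. Itgam (CD11b, part of the sort) had log2 ratios of 0.30 and 0.73. Itga4, a chain of the integrin that binds VCAM1, had 0.18 and -0.00, and Cd44, the hyaluronan receptor, 0.25 and 0.49. List medians were -0.00 and -0.19.

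Of the chemokines with other receptors, Pf4, Ccl6 and Ccl9 were higher and Ccl24 lower in both libraries, which accounts for all 4 that passed the minimum out of 6 listed. Pf4, a heparin-binding chemokine also known from platelets, was at 3382 CPM against 975 in wild type (3.47-fold, 3.28 to 3.67) and 2338 against 755 in the knockout (3.09-fold, 2.87 to 3.34). Every wild-type and 93.6% of knockout members had a Pf4 UMI. Ccl6 was at 593 against 307 CPM and 631 against 152 CPM, and Ccl9 at 156 against 68.8 CPM and 127 against 29.1 CPM. Ccl24, an eosinophil attractant, was at 32.8 against 132 CPM in wild type and 76.95 against 212 CPM in the knockout. A Ccl24 UMI was found in 14.0% of wild-type members and 17.0% of matched cells, and in 13.4% and 14.6% of knockout cells. The 35 wild-type matched cells with the most Ccl24 held 92.4% of its UMIs in matched cells, and the top 57 knockout cells 93.3%. Among cells with 2000 to 4000 UMIs the wild-type ratio of Ccl24 was -0.15 on the log2 scale, which would not be called. The direction thus depended on the chemokine.

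The inflammatory list behaved differently. Of its 10 genes 6 passed the minimum and only Il1b, which encodes interleukin-1 beta, was called in both libraries, lower at 470 against 1141 CPM and 1383 against 2552 CPM. Cxcl2, a neutrophil attractant, had log2 ratios of -1.24 (wild type) and 0.50 (knockout), and Cxcl10, an interferon-induced T cell attractant, -1.54 and -0.52. Tnf was below the minimum. Il6 had 0 UMIs in members and in matched cells of both libraries. List medians were -0.86 and -0.01.

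Perivascular-linked genes that the rule did not use were higher although the rule kept the 4 chosen perivascular genes low. Of 16 listed genes 12 passed the minimum, and Pf4, Fcrls, Igf1, Dab2, Pltp, Sepp1 and Cp were higher in both libraries, with list medians of 1.15 and 0.99. Pltp, a lipid transfer protein gene, had a wild-type log2 ratio of 0.62, and of 0.58, just under the call, without the cell with the most of its UMIs. Fcrls was at 188 against 48.2 CPM in wild type (3.90-fold, 3.02 to 5.04) and 195 against 38.2 CPM in the knockout (5.10-fold, 3.74 to 7.003). Its 2 wild-type lanes had log2 ratios of 1.91 and 2.01. Igf1, an insulin-like growth factor, was at 121 against 30.7 CPM and 267 against 108 CPM. Dab2, an adaptor for clathrin-mediated uptake, was at 405 against 135 CPM and 734 against 312 CPM. Cp, which encodes the copper-carrying ferroxidase ceruloplasmin, was at 147 against 49.95 CPM and 257 against 89.6 CPM. Stab1, a scavenger receptor of resident macrophages, was called in wild type only, with log2 ratios of 0.94 and 0.57. Members with 0 UMIs of the 4 perivascular genes still had Fcrls at log2 ratios of 1.48 and 2.06, Pf4 at 1.73 and 1.41 and Dab2 at 1.37 and 1.19.

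Of the scavenger and lectin receptors 5 of 14 passed the minimum. Cd36 was at 114 against 29.8 CPM in wild type (3.84-fold, 2.76 to 5.35) and 357 against 77.02 CPM in the knockout (4.64-fold, 3.72 to 5.81). Mrc1 (the mannose receptor CD206) was at 721 against 318 CPM and 1231 against 516 CPM. Msr1, scavenger receptor A, had log2 ratios of -0.33 and -0.32. Marco had 0 UMIs in members and in matched cells. Cd209f, a lectin below the minimum, had 15 member UMIs against 4 in wild type (11.2-fold, 3.58 to 46.5) and 21 against 5 in the knockout (12.6-fold, 4.62 to 42.7). Of the 5 receptors 3 were higher in wild type and 2 in the knockout, with list medians of 0.94 and 0.57.

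The haem and iron genes, the pathway in which CD163 itself acts, had no gene called in both libraries among the 9 of 15 that passed the minimum. Over all tested genes 3.83% were higher and 3.43% lower in both, so this count is near that share. Hmox1, which breaks down haem, was at 73.6 against 64.8 CPM in wild type (1.13-fold, 0.819 to 1.55) and 236 against 104 CPM in the knockout (2.26-fold, 1.80 to 2.83). The ferritin heavy chain Fth1 had log2 ratios of -0.13 and -0.20. Slc40a1, the iron exporter ferroportin, was below the minimum in wild type and had log2 ratios of 0.90 and 0.92. Spic, a transcription factor of haem-recycling macrophages, was also below it, with 11 member UMIs against 8 in wild type (4.12-fold, 1.51 to 11.8) and 19 against 13 in the knockout (4.38-fold, 2.05 to 9.65). Trf, which encodes transferrin and was chosen for mention after its values were seen, was called higher in both, at 751 against 364 CPM and 1045 against 458 CPM.

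Among genes for the uptake of dying cells 6 of 13 passed the minimum and Gas6 and Abca1 were higher in both libraries. Gas6, a bridge between dying cells and TAM receptors, was at 188 against 54.8 CPM in wild type and 431 against 158 CPM in the knockout. Its wild-type log2 ratio was 2.09 in lane 1 and 0.68 in lane 2. Abca1, a cholesterol exporter, was at 125 against 59.2 CPM and 274 against 104 CPM. Axl, a receptor for Gas6, had log2 ratios of -0.00 and -0.47, and Mertk, the other main one in macrophages, was below the minimum with 0.11 and -0.50. The ligand was called higher and Axl was not, while Mertk, being below the minimum, could not be called.

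C4b, a complement component gene below the minimum, had 24 member UMIs against 6 in wild type (11.99-fold, 4.78 to 35.9) and 59 against 32 in the knockout (5.53-fold, 3.54 to 8.78). Bmp2, a morphogen through which muscle-layer macrophages act on enteric neurons, was below the minimum as well, with 27 member UMIs against 18 in wild type (4.50-fold, 2.39 to 8.67) and 111 against 92 in the knockout (3.62-fold, 2.72 to 4.82). In the growth factor list only Thbs1 and Tgfb1 passed, and Thbs1 was lower in both.

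The other leading genes had varied roles. Wwp1, a ubiquitin ligase, was at 256 against 60.9 CPM in wild type and 371 against 102 CPM in the knockout. Igfbp4, which binds insulin-like growth factors, was at 282 against 82.8 CPM and 333 against 101 CPM. Timp2, an inhibitor of matrix metalloproteinases, was at 85.4 against 17.5 CPM and 166 against 51.9 CPM. Alox5ap, needed for leukotriene synthesis, was at 113 against 36.4 CPM and 149 against 38.8 CPM. Ptafr, the receptor for platelet-activating factor, was at 72.3 against 28.9 CPM and 190 against 79.3 CPM. These lipid mediator genes stood beside Ltc4s, leukotriene C4 synthase, called in wild type only with log2 ratios of 1.35 and 0.49.

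Ccnd1, which encodes cyclin D1, was at 142 against 52.6 CPM in wild type and 226 against 85.0 CPM in the knockout, but lane 2 gave a log2 ratio of 0.41 against 1.61 in lane 1. Neither of the 2 tested proliferation genes, Tubb5 and Pcna, was called in both, and the dividing-cell markers Mki67 and Top2a were below the minimum. Ahnak, a large scaffold protein gene, had ratios of 1.26 in wild type and 2.41 in the knockout. Stard8, Ehd4 and Pid1, the remaining leading genes, had log2 ratios between 1.23 and 1.53 in both libraries. Of 7 tested transcription factors Maf, which maintains resident macrophage identity, was the 1 called in both, at 591 against 329 CPM and 1230 against 566 CPM.

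**Figure D2:**
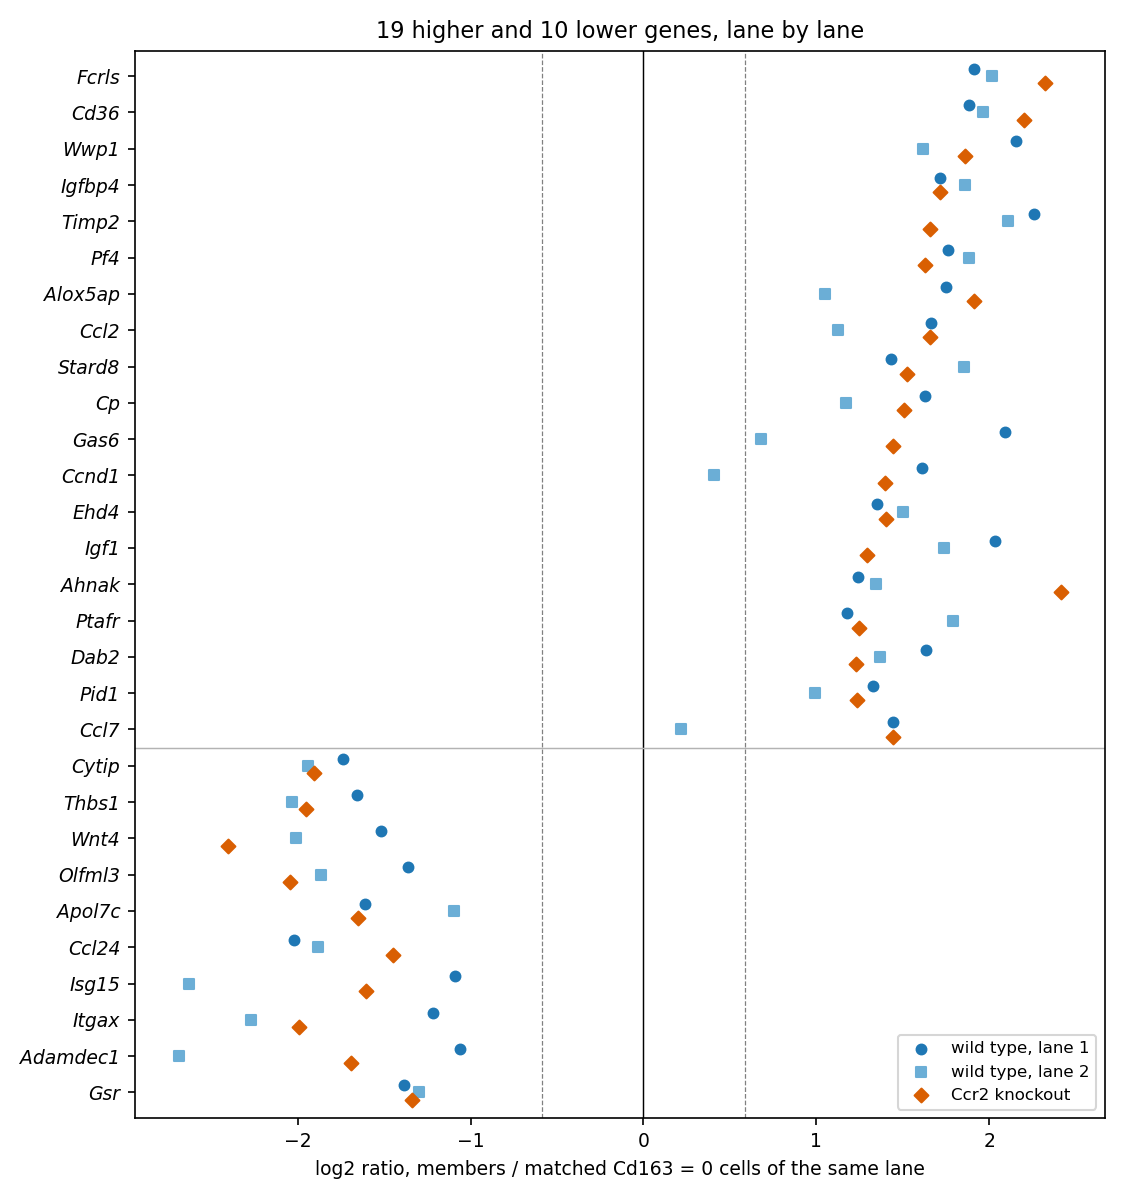
Log2 ratio of summed CPM in Cd163-positive macrophages over depth-matched Cd163 = 0 cells of the same lane, for 19 leading higher and 10 leading lower genes, with wild-type lane 1 (circles), wild-type lane 2 (squares) and the Ccr2 knockout (diamonds) apart. Dashed lines mark 1.5-fold. All 29 genes drawn have the same sign in the 3 lanes, and Ccnd1 (0.41) and Ccl7 (0.22) fall inside the lines in lane 2. The genes were chosen on ratios from these same lanes, so the shared sign is a description.

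The genes that were lower in Cd163-positive macrophages also recurred. Apol7c, an apolipoprotein L family gene, was at 550 against 1535 CPM in wild type (log2 ratio -1.48) and 313 against 986 CPM in the knockout (-1.65). Adamdec1, a secreted metalloprotease of gut macrophages, was at 148 against 386 CPM (-1.37) and 373 against 1209 CPM (-1.69). Wnt4, a Wnt ligand, was at 42.0 against 130 CPM (-1.61) and 59.9 against 321 CPM (-2.40). Thbs1, the matrix protein thrombospondin 1, was at 35.5 against 120 CPM (-1.74) and 125 against 487 CPM (-1.95).

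Cytip, a regulator of leukocyte adhesion, had log2 ratios of -1.78 and -1.90. Olfml3 (-1.52 and -2.04), a secreted glycoprotein gene, and Gsr (-1.37 and -1.34), glutathione reductase, completed the group together with Ccl24, Isg15 and Itgax. Acp5, an acid phosphatase gene chosen for mention after its values were seen, was at 305 against 710 CPM in wild type and 250 against 681 CPM in the knockout. Cxcl9, an interferon-gamma-induced chemokine chosen in the same way, was at 127 against 295 CPM and 73.5 against 407 CPM. Of the 76 genes lower in both libraries all 76 had the same sign in each wild-type lane, and of the 85 higher genes 85 did in lane 1 and 83 in lane 2. These genes were called on the 2 lanes summed, and lane 1 held 84 of the 114 wild-type members. The lane signs are therefore a description and not separate support.

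Resident macrophage genes that passed the minimum, other than those above, were called in neither library. Of 8 listed genes 6 passed the minimum, and Mrc1 and Gas6, already given, were the 2 called. Cx3cr1, the fractalkine receptor, had log2 ratios of 0.54 and 0.49, Apoe 0.02 and -0.02, and Cd81 -0.07 and -0.38. Timd4 and Cd4, which mark long-lived gut macrophages, differed in what they showed. Timd4, below the minimum, was at 61.7 against 35.1 CPM in wild type and 159 against 171 CPM in the knockout. It was in 26.3% of wild-type members against 14.9% of matched cells, and in 34.8% against 33.5% of knockout cells. Timd4 and Cd4 were detected together in 14.0% of wild-type and 16.04% of knockout members, against 9.94% and 18.2% of matched cells. Log2 ratios were 0.80 and -0.10 for Timd4, and -0.10 and -0.52 for Cd4. In cells with 2000 to 4000 UMIs the Timd4 ratios were 1.43 and -0.22. The Cd4 ratios there were -0.87, from 8 wild-type member UMIs, and -0.72, both past 1.5-fold.

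The lists of this paragraph are short, and over all tested genes only 3.83% were higher and 3.43% lower in both libraries. Their low counts therefore say little about these genes. None of the 7 tested MHC class II genes was called in both libraries. H2-Aa was at 11349 against 11689 CPM in wild type and 8243 against 8292 CPM in the knockout, and the invariant chain Cd74 had -0.29 and -0.56. None of 5 tested heat-shock genes was called in both. Of 10 tested lysosomal genes, 1, the protease gene Ctsd, was higher in both, at 164 against 76.7 CPM and 224 against 111 CPM. Monocyte-linked genes were all below the minimum. Plac8, a gene of young monocyte-derived cells, was at 53.9 against 150 CPM in wild type and 18.8 against 51.3 CPM in the knockout. The glucocorticoid list had no gene called in both of 3 tested. Its metallothionein Mt2, below the minimum, had 8 member UMIs against 3 in wild type (7.996-fold, 1.92 to 46.8) and 91 against 63 in the knockout (4.33-fold, 3.11 to 6.07).

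**Figure D3:**
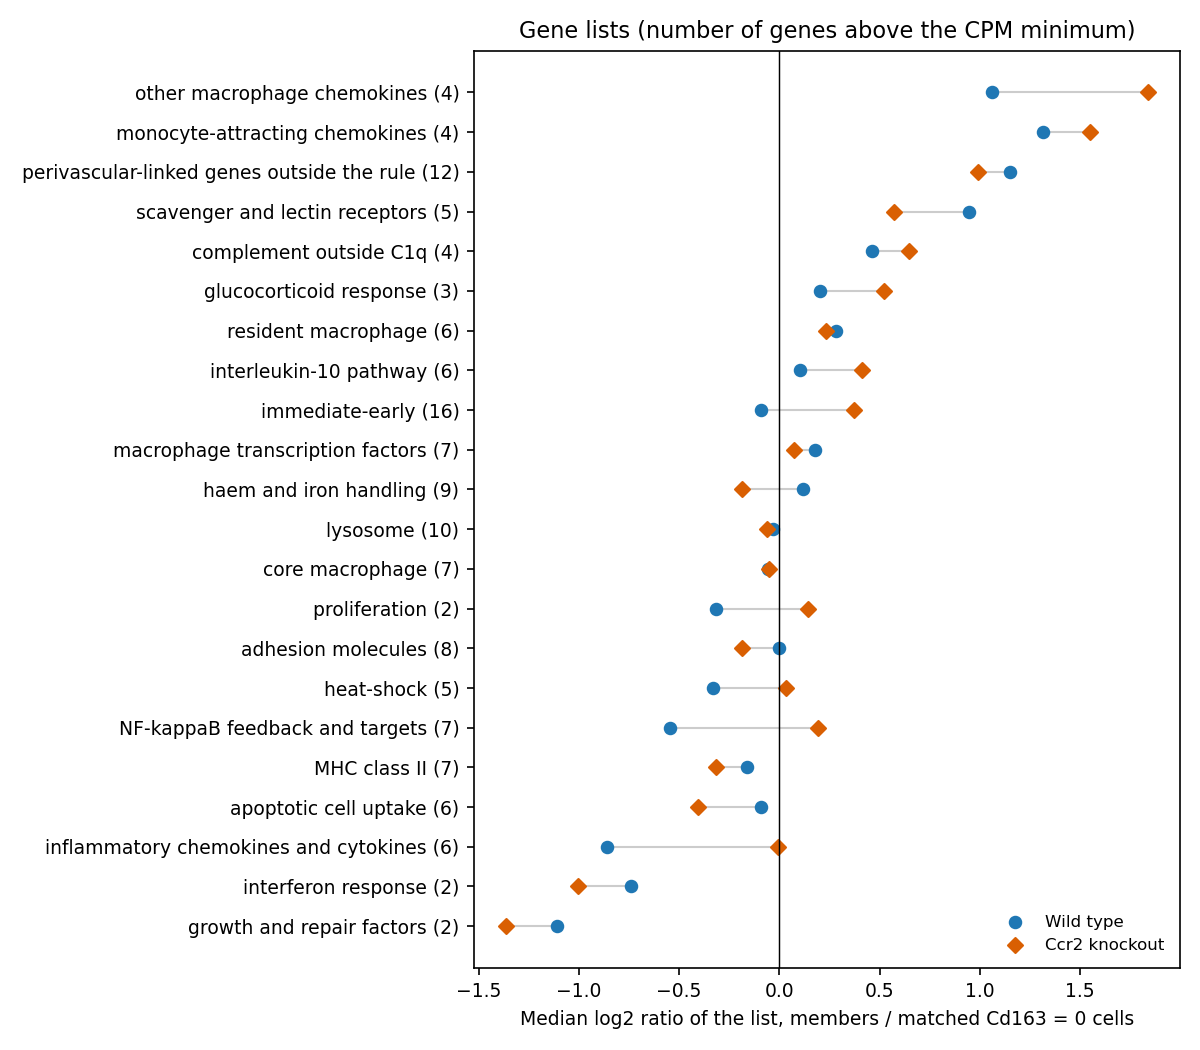
Median log2 ratio, members over matched cells, of each gene list with at least 2 genes above the CPM minimum, in wild type (circles) and the Ccr2 knockout (diamonds), with the number of genes in brackets. The monocyte-attracting chemokines (1.31 and 1.55) and the perivascular-linked genes (1.15 and 0.99) lie far to the right of the all-gene medians of 0.02 and 0.06, while core macrophage genes (-0.05 in both) lie near 0. The lists were chosen with earlier results of these data known, and Ccl2 and Ccl7 were named with the cells, so the medians are a description.

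Activation genes differed between the libraries. The median share of immediate-early transcripts per cell was 0.483% in wild-type members and 0.697% in their matched cells, and 3.83% against 3.02% in the knockout. The list median was -0.09 for wild type and 0.37 for the knockout. Of 16 tested genes Klf2, a transcription factor, was the 1 called in both (0.70 and 1.23). Ier3, an early response gene, was at 152 against 114 CPM in wild type and 1370 against 522 CPM in the knockout. Egr1, an early transcription factor, had log2 ratios of 0.22 and 0.67. The chemokine ratios after matching on this share are given above with Ccl2 and Ccl7.

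Of 7 tested NF-kappaB genes Tnfaip2 and Ptgs2 were lower in both libraries. Tnfaip2 was at 162 against 348 CPM and 486 against 1396 CPM, and Ptgs2, which encodes cyclooxygenase 2, at 65.7 against 146 CPM and 263 against 721 CPM. Nfkbia, the inhibitor induced by NF-kappaB, had -0.56 in wild type and 1.14 in the knockout. Of the interferon list Isg15, which encodes a ubiquitin-like protein, was lower in both, at 92.0 against 246 CPM and 210 against 641 CPM. Socs3, which feeds back on cytokine receptors including the interleukin-6 and interleukin-10 pathways, was the 1 tested gene called in opposite directions, at 35.5 against 76.7 CPM in wild type and 328 against 140 CPM in the knockout. The wild-type value rested on 27 member UMIs, with log2 ratios of -0.53 in lane 1 and -4.14 in lane 2, and it was 0.46 among cells with 2000 to 4000 UMIs. Il10 was below the minimum, at 25.0 against 21.0 CPM and 95.8 against 71.3 CPM, and no gene of that list was called higher or lower in both.

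Cells with 1 Cd163 UMI, below the minimum of the rule, already differed from cells with 0 in the direction of the members for all 20 leading higher and all 10 leading lower genes in both libraries. The same held for cells with 4 or more UMIs against 0, but those cells are members, on which the genes were chosen. That comparison is therefore a description and adds no support. A step in that direction from each class to the next was seen for 12 of the 20 higher genes of the wild type and 3 of the knockout. For the 10 lower genes these numbers were 4 and 5. Knockout Gas6, for one, had 180.2, 348, 521, 397 and 297 CPM. Pf4 in wild type was at 934 CPM in cells with 0 Cd163 UMIs, 1952 CPM with 1, 2915 CPM with 2, 3622 CPM with 3 and 4228 CPM with 4 or more. In the knockout the same classes had 717, 1327, 2072, 2570.2 and 2569.6 CPM. Dab2 in wild type ran from 116 over 256, 377 and 428 to 446 CPM. Apol7c ran the other way, from 1544 over 1093, 723 and 453 to 247 CPM in wild type, and from 932 over 529, 414 and 270.2 to 166 CPM in the knockout.

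For Ccl2 and Ccl7 in the knockout most of the step lay between 0 and 1 Cd163 UMI. Knockout Ccl2 was at 465 CPM with 0, 1393 CPM with 1, 1368 CPM with 2, 1322 CPM with 3 and 1744 CPM with 4 or more Cd163 UMIs. Knockout Ccl7 was at 819.6 CPM with 0, 2064 CPM with 1, 2105 CPM with 2, 2553 CPM with 3 and 2519 CPM with 4 or more. Wild-type Ccl7 had 161, 335, 367 and 520.4 CPM in the first 4 classes and 235 CPM in the 25 cells of the last class. Wild-type Adamdec1 was lower in each class in turn, with 382, 315, 219, 97.9 and 36.1 CPM. The median totals of the classes ranged from 5506.5 to 6393 UMIs (wild type) and from 2401.5 to 3628.5 (knockout), so the classes were not of equal depth.

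**Figure D4:**
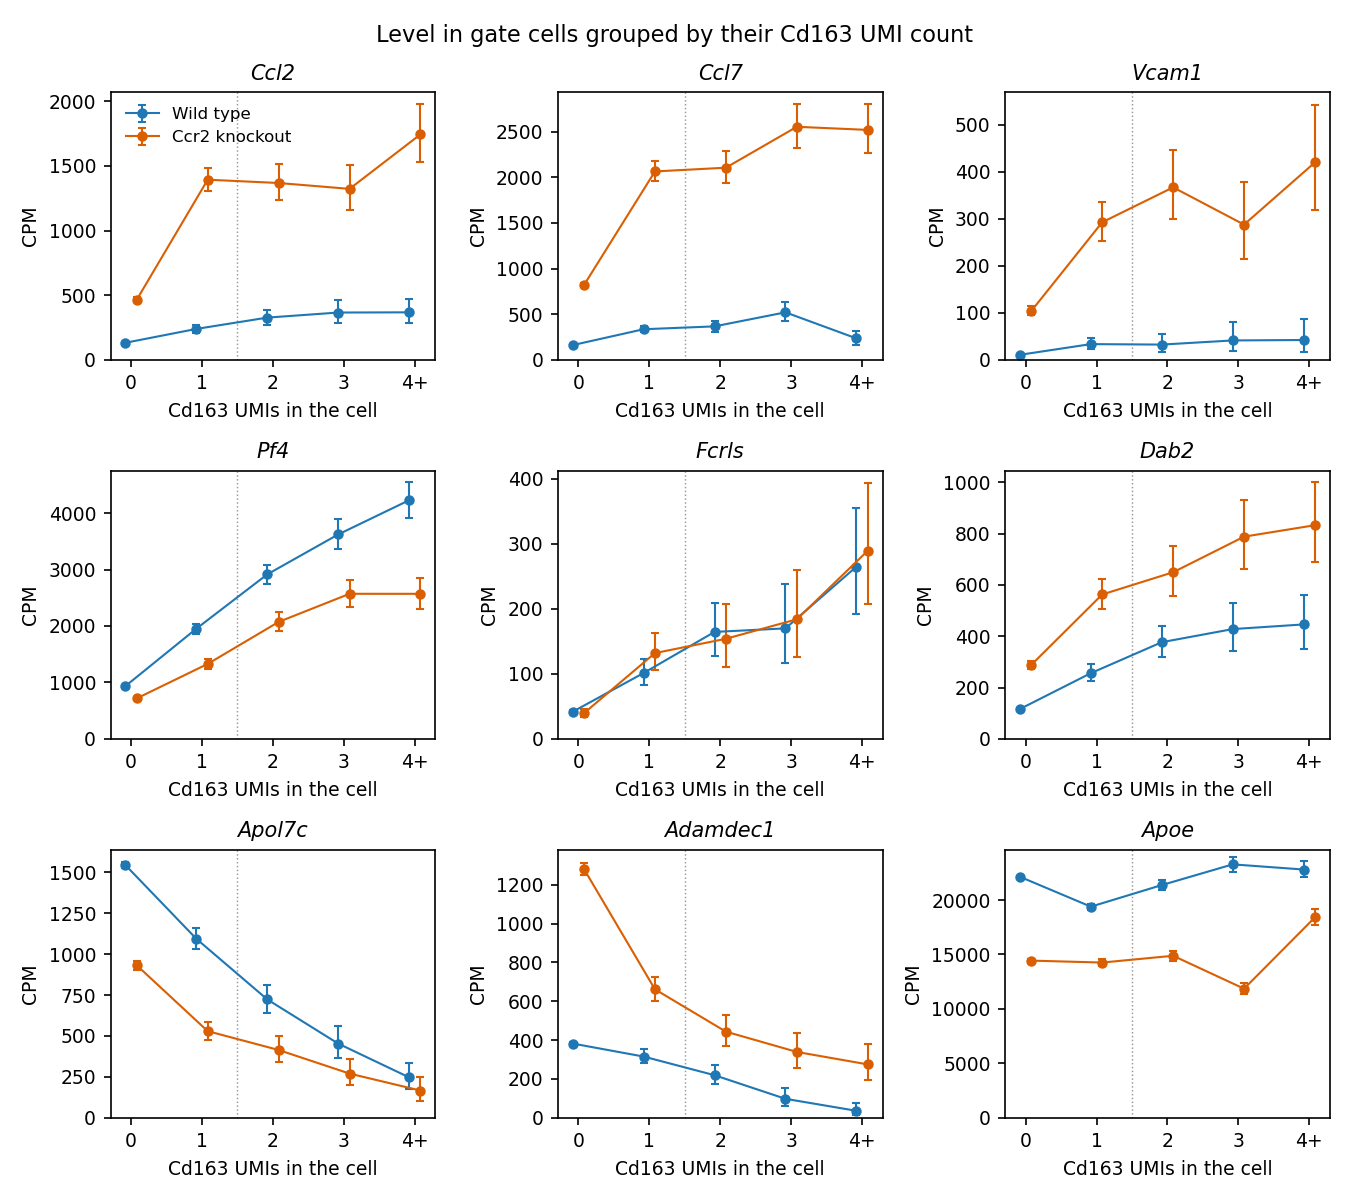
CPM (linear axis from 0) of 9 genes in gate cells below the perivascular limit, grouped by their number of Cd163 UMIs, in wild type (blue) and the Ccr2 knockout (orange), with exact Poisson intervals as bars. The dotted line marks the minimum of 2 Cd163 UMIs, and cells to its right are the members on which the leading genes were chosen. Pf4, Fcrls and Dab2 are higher, and Apol7c and Adamdec1 lower, in cells with 4 or more Cd163 UMIs than with 0 in both libraries, while Apoe, at 22134 CPM with 0 and 22799 CPM with 4 or more UMIs in wild type, stays level there.

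Shares of cells with a UMI were read after thinning to 1000 UMIs. Ccl2 was then found in 27.2% of wild-type members (interval 19.3% to 36.3%) and 8.77% of matched cells (6.00% to 12.3%), against 6.25% of 32 lymphoid cells outside the gate. In the knockout the shares were 57.4%, 22.8% and 5.88% (34 lymphoid cells). Unthinned, 59.6% of wild-type and 76.5% of knockout members had a Ccl2 UMI. The median depth of the lymphoid cells was 7877.5 UMIs for wild type, and 2243 for the knockout. They were picked by at least 2 UMIs of the T and B cell genes Cd3d, Cd3e, Cd3g, Cd79a, Cd79b and Ms4a1. Unthinned, 53.1% of them in wild type and 11.8% in the knockout had a UMI of Cx3cr1, a listed macrophage gene. They are thus not a clean background.

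Ccl7 was found after thinning in 18.4% of wild-type members and 12.6% of matched cells, with intervals that overlap. It was in 0 of the 32 lymphoid cells, which allows up to 10.9%. In the knockout it was in 66.1% of members and 31.3% of matched cells, beside 14.7% of lymphoid cells. Vcam1 was found in 3 of 114 wild-type members (2.63%, interval 0.546% to 7.498%) and 1 of 32 wild-type lymphoid cells (3.13%, interval 0.0791% to 16.2%). These are too few to tell the groups apart after thinning. Among knockout cells it was in 21.9% of members against 9.11% of matched and 0 of 34 lymphoid cells, which allows up to 10.3%. Pf4 was in 91.2% against 54.1% of wild-type cells and 79.2% against 43.0% of knockout cells, beside 18.8% and 14.7% of lymphoid cells.

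Members varied among themselves. In wild type the 12 members with the most Ccl7 held 51.9% of its UMIs, and 1 cell with 30 UMIs held 10.5%. In the knockout the top 19 members held 45.1% of Ccl7 UMIs and 1 cell had 83. Ccl2 was as uneven, with 49.0% of its UMIs in the top 12 wild-type members and 41.1% in the top 19 knockout members. Ccl8 was the most uneven of the 4 neighbouring chemokines, with 82.7% and 71.4%, and Ccl12 had 56.5% and 66.0%. Pf4 was more even, with 26.7% and 34.8%. Vcam1 UMIs were found in 15 wild-type and 76 knockout members.

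Ccl2 and Ccl7 were found together in 34.2% of wild-type members, where the product of their single shares was 31.9%. In the knockout they were found together in 63.6%, against a product of 58.1%. In matched cells the joint share was 14.3% against a product of 8.29% in wild type, and 26.6% against 20.4% in the knockout. Deeper cells are likelier to show both genes, so these shares are a description.

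The most similar cells were those with at least 2 Cd163 UMIs that did carry the 4 perivascular genes at a sum of 3 or more, 49 in wild type and 48 in the knockout. Their Cd163 level was 577 CPM in wild type and 1020.3 CPM in the knockout. Ccl12 was lower in members than in these cells, at 640 against 2194 CPM in wild type and 886 against 1859 CPM in the knockout. Vcam1 was lower too, at 36.8 against 161 CPM and 356 against 710 CPM. Dab2 was at 405 against 874 CPM and 734 against 1207 CPM.

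Ccl7 was lower in members as well, at 377 against 809 CPM in wild type and 2336 against 3061 CPM in the knockout. Ccl2 differed by library, with 346 CPM in members against 577 CPM in wild type but 1443 against 1398 CPM in the knockout. Ccl8 was at 615 against 3012 CPM in wild type and at 800 against 1010 CPM in the knockout. Acp5, which was low in members beside matched cells, was higher in them than in the perivascular-gene cells, at 305 against 59.5 CPM and 250 against 98.4 CPM. Apol7c was at 550 against 244 CPM and 313 against 129 CPM. From matched cells without Cd163 over members to the cells with perivascular genes, Acp5 and Apol7c fell in both libraries. Ccl7, Ccl8, Ccl12, Vcam1 and Dab2 rose in that order in both libraries, and Ccl2 did so in wild type only. Raised levels of these genes were therefore not particular to the members. These differences were not tested, since each group is cells of 1 library.

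Levels of the set in the 2 libraries are given side by side with those of the matched cells. Ccl7 was 2.63 higher on the log2 scale in knockout than in wild-type members and 2.39 higher in knockout than in wild-type matched cells. Ccl2 had 2.06 and 1.94, and Vcam1 3.24 and 3.21, so for these genes the gap between libraries was nearly the same in cells without Cd163. Pf4 had -0.53 and -0.37. Gaps that were wider in members belonged to Socs3 (3.17 and 0.86), Nfkbia (3.25 and 1.55) and Cxcl2 (3.90 and 2.16). Ahnak had a gap of opposite sign in the 2 kinds of cell (0.31 and -0.85). Timp2 (0.95 and 1.51) and Igf1 (1.14 and 1.79) had a narrower one. Genotype, animal source, depth and immediate-early share all differ between the libraries, and their parts cannot be told apart.

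Markers of other cell types were summed beside these results. The 4 smooth muscle genes Acta2, Myh11, Tagln and Des were at 34.2 CPM in wild-type members against 14.9 CPM in matched cells and at 66.7 against 28.0 CPM in the knockout, with 0 to 3 and 0 to 5 UMIs per member and no gene at 0. Fibroblast genes were at 17.1 against 9.20 CPM and 49.6 against 36.5 CPM. Epithelial genes summed to 38.1 against 92.9 CPM and 34.2 against 132 CPM. Endothelial genes summed to 21.0 against 56.5 CPM and 54.7 against 165 CPM, of which Pecam1, an adhesion gene that leukocytes also express, gave 14 of 16 wild-type and 27 of 32 knockout member UMIs. Cdh5, a defining endothelial gene, had 0 UMIs in members of both libraries. The red cell list of haemoglobin genes and Alas2, itself at 0 in members, summed to 27.6 against 11.8 CPM in wild type and 421 against 414 CPM in the knockout. The part of these other-cell transcripts in the results was not tested. T cell markers were at 2.63 CPM (wild type) and 3.42 CPM (knockout), and Cd3d and Cd3e had 0 UMIs.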

How the data were processed

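The deposited matrices hold UMI counts per gene and cell as whole numbers, which the authors made with Cell Ranger 3.0.1 on mm10, per the submitters' processing notes, from 10x Genomics 3′ v2 libraries, per the labels' protocols. The counts were not normalised. How the authors called cells, and any equalising of lane depth, are not given in the sources used here. Of 27998 gene identifiers 99.0% were found in GENCODE M21 (GRCm38). 3′ counting can split transcripts of near-identical genes.

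Members and gene lists were chosen with earlier results of these data known. UMIs were summed over members and over up to 3 depth-matched cells each, scaled to counts per 1000000 UMIs (CPM), and compared as log2 ratios with a pseudocount of 1 CPM. With 1 library per genotype no test was run, and a gene was called from 1.5-fold at a mean of at least 50 CPM. Named genes, without mitochondrial and ribosomal protein genes, were the 20 highest by the smaller of the 2 libraries' ratios, the 10 lowest by the larger, the 4 markers given with the members, listed genes called in both libraries, opposite calls, and up to 4 others per list. A few of these, and Clec7a, Flvcr1 and Trbc2 of the lists, are not reported here. Doublets were left in, and an alternative removed the highest Scrublet scores (scanpy 1.11.5), since the automatic threshold marked only 12 cells. Intervals are exact Poisson, exact conditional or Clopper-Pearson at 95% (scipy 1.17.1). The procedure was tested on simulated data. Alternatives changed the matching, the member rule, the cell filters, scaling, pseudocount, CPM minimum, fold, lane and single cells.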

Additional observations from a re-analysis of the deposited data

Results flagged for a closer look

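Socs3 was the 1 tested gene of 2218 that was called in opposite directions in the libraries. Its log2 ratio of members over matched cells was -1.09 in wild type and 1.22 in the knockout. The difference between the libraries was not tested. The wild-type value came from 27 UMIs in members, and both wild-type lanes were below 0, with -0.53 and -4.14. Among gate cells with 2000 to 4000 UMIs, a setting chosen after seeing the data, the wild-type value was 0.46.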

How the results depend on the processing

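No paired analysis was possible because each genotype is 1 library. Of 986 recomputed values of named genes, 836 stayed within counting error, 149 moved further and 1 reversed, Socs3 in wild type, at 0.46 among cells with 2000 to 4000 UMIs, a setting chosen after seeing the data. Without the 1 cell with the most UMIs of a gene, also chosen after seeing the data, 71 of 85 higher and 69 of 76 lower genes kept their call, and Ccl8 in wild type, at 0.37, did not. All 85 higher and 76 lower genes kept their direction in both libraries under every other alternative but 3. These were thinning to 1000 UMIs (82 and 75), lane 2 alone (83 and 76) and cells with 2000 to 4000 UMIs (79 and 75). A change of the CPM minimum, the fold or the pseudocount cannot turn a direction. The other settings reused at least part of the members on which the genes were called. The kept directions are therefore a description and not separate support.

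Against 85 genes higher in both libraries, there were 51 with members from 1 Cd163 UMI, 174 at a CPM minimum of 20, 47 at 100 and 28 at 2-fold. Against 76 lower genes the same settings gave 50, 170, 35 and 29, with 121 when C1q genes made up at least 1% of UMIs and 141 at 2000 to 4000 UMIs.

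The wild-type share was 9.51% from 1 Cd163 UMI, 2.05% from 3, 2.92% with 0 perivascular UMIs, 5.51% at 2000 to 4000 UMIs and 0.758% after thinning. The knockout share was 19.4%, 4.03% and 5.80% under the first 3, 6.88% at 1% C1q and 3.26% after thinning.

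The log2 ratio of Ccl2 in wild type was 1.05 with matching on immediate-early share, 1.21 in cells with at least 500 genes and at most 5% mitochondrial UMIs, 1.23 at 1% C1q, 1.12 in lane 2 and 0.98 at 2000 to 4000 UMIs. In the knockout it was 1.47 with that matching, 1.49 under the stricter cell filter, 1.81 at 2000 to 4000 UMIs, 1.52 after thinning, 2.18 from 3 Cd163 UMIs, 1.51 with 0 perivascular UMIs and 1.40 as a mean of single-cell CPM. Ccl7 in wild type had 0.90 with immediate-early matching, 0.98 from 1 Cd163 UMI, 0.96 under the cell filter, 1.45 in lane 1, 0.22 in lane 2 and 0.61 at 2000 to 4000 UMIs. In the knockout it had 1.57 with 1 matched cell per member, 1.26 with immediate-early matching, 1.99 from 3 Cd163 UMIs, 1.30 with 0 perivascular UMIs, 1.14 under the cell filter, 1.28 as a mean of single-cell CPM and 1.76 at 2000 to 4000 UMIs.

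Vcam1 in wild type had -0.00039 with 0 perivascular UMIs and 0.60 under the cell filter, and at most 2.20, at 2000 to 4000 UMIs. Its knockout value was 1.25 with 1 matched cell and 2.05 at 1% C1q. The cause of these shifts was not tested. Wild-type values of Vcam1 (28 member UMIs), Socs3 (27), C4b (24) and other low genes are limited by depth.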
